A study of Mus musculus with 38 samples.

Results

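The genes of the interstitial matrix of the heart were followed as a named set of 36, covering fibrillar and other interstitial collagens, elastic fibre genes, matricellular glycoproteins, collagen enzymes and a pair of fibroblast identity genes. The set was chosen by gene name, with earlier results of these data known. All 36 were among the 29564 genes in the deposited tables, and all 36 were among the 13765 genes that had enough counts to be tested. RNA was measured by poly(A) RNA-seq in left ventricle homogenates of 38 wild-type C57BL6 mice (C57BL/6J in the study's methods), with 1 library per mouse. Healthy mice that received vehicle formed the non_failing group (n = 8). HFpEF stands for heart failure in which the ejection fraction is preserved, and mice of this kind received vehicle (HFpEF+Veh, n = 8), TYA-018, which blocks the deacetylase HDAC6 (HFpEF+TYA-018, n = 11), or empagliflozin, which blocks the glucose transporter SGLT2 of the kidney (HFpEF+SGLT2i, n = 11). HFpEF had been induced in all 3 of the latter groups with a high-fat diet and L-NAME, which blocks nitric oxide synthesis, so the model acts on the whole animal and not only on the heart. The labels give no dose, age or batch, although the study's methods state a daily dose of each drug.

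The interstitial matrix is made mainly by fibroblasts. Collagen types I, III and V form the fibrils that bear tension, type VI forms beaded microfibrils between the fibrils and the cells, and fibrillins, fibulins and elastin build the elastic fibres that recoil. Collagen chains are hydroxylated and folded in the endoplasmic reticulum, trimmed outside the cell and then joined by lysyl oxidases, and an excess of such matrix is a known source of ventricular stiffness.

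Library totals ran from 21.5 to 59.3 M expected counts with a median of 29.5 M (M stands for 1000000). The 36 genes together took 0.113 to 0.147% of all counts in non_failing, 0.126 to 0.196% in HFpEF+Veh, 0.102 to 0.175% in HFpEF+TYA-018 and 0.105 to 0.179% in HFpEF+SGLT2i. The tissue label was checked against marker genes. A list of 8 cardiomyocyte genes summed to between 22100 and 36100 TPM (transcripts per 1000000) over the 38 libraries, while 5 adipocyte genes summed to at most 0.755 TPM and none of them passed the filter. A pair of vehicle libraries stood apart. V2523 held 766 TPM of 6 hepatocyte genes and 49.6 TPM of 5 epicardial and mesothelial genes, which summed to 3.75 to 8.32 TPM in the other vehicle libraries, and V2530 had the highest summed level of the 36 matrix genes, 652.9 TPM. Fold changes against the vehicle group were therefore also computed without V2523 and V2530. The next highest sums of the matrix genes in that group were 596.1 TPM in V2521 and 568.8 in V2529. Leaving out the library with the highest sum lowers the summed vehicle level by construction. Hepatocyte RNA also differed by group, with sums of 10.9 to 183 TPM in non_failing (median 29.5, highest in V2504), a median of 1.66 in HFpEF+Veh and at most 1.79 with TYA-018 and 4.94 with the SGLT2 inhibitor. All 6 genes were called lower in each drug group than in non_failing, against 7.39% and 6.45% of all genes called in either direction. In HFpEF+Veh against non_failing 0 were called with all libraries, against 3.15% of all genes in either direction. Without V2523 and V2530 5 were called lower there, against 1.57% of all genes called lower. Against vehicle all 6 were called lower with each drug, against 1.93% and 0.850% of all genes. Without V2523 and V2530 none was called there, with median log2 fold changes of -2.845 for TYA-018 and -1.93 for the SGLT2 inhibitor. At an unadjusted p under 0.05 were then 6 and 5, against 15.3% and 6.99%. The part of this RNA in the matrix values was not tested. In homogenates, fewer cells of a type and less RNA per cell cannot be told apart.

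The set spanned nearly 3 orders of magnitude in level. Over all 38 libraries Sparc, a collagen-binding matricellular protein, had the highest mean at 113.5 TPM. It was followed by the elastic fibre glycoprotein Fbln2 at 36.4, the procollagen C-proteinase enhancer Pcolce at 28.4, the collagen chaperone Serpinh1 at 27.7 and the microfibril protein Mfap5 at 21.6 TPM. Among the fibrillar collagens Col3a1 led with 15.8 TPM, before Col1a2 with 12.4 and Col1a1 with 8.16 TPM. At the other end lay the elastic fibre gene Fbln5 with 0.293, the fibril-associated collagen Col12a1 with 0.211 and the injury-associated glycoprotein Tnc with 0.131 TPM. Values of these last genes rest on few reads. TPM is scaled to transcript length, so these levels can be compared between genes.

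The promoters shown are those of genes that passed the test for a rise in HFpEF+Veh against non_failing. Shared control of these genes was not tested. RefSeq gave a start-site window on assembly GRCm38.p6 for 24 of the 36 genes, and for 4 of the genes that passed the 250 bases before the start overlapped no annotated exon. Each is written 5′ to 3′ on its coding strand, and capitals mark a match on either strand to 1 of 5 short motifs. The TATA box, which places the start of transcription in some genes, was searched as TATAAA. The box bound by the factor NF-Y was searched as CCAAT, and the GC box, which factors of the Sp family bind, was searched as GGGCGG. The motif of the growth and stress factor AP-1 was searched as TGANTCA, with any base at N. The motif of the load-sensitive TEAD factors was searched as GGAATG. The motifs do not overlap each other in the windows printed. The windows are chr1:90843972-90844221, minus strand, for Col6a3, chr3:54360857-54361106, plus strand, for Postn, chr16:57754738-57754987, minus strand, for Col8a1 and chr5:75152001-75152250, plus strand, for Pdgfra.
Col6a3: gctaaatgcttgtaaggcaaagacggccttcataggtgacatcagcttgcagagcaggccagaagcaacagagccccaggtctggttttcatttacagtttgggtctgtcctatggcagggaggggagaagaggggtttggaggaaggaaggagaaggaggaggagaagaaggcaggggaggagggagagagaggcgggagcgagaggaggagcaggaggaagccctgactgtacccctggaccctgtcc
Postn: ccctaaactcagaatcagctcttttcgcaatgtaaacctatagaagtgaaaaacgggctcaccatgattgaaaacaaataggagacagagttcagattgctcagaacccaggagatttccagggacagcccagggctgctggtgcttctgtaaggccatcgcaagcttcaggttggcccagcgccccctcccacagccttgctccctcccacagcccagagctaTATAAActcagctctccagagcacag
Col8a1: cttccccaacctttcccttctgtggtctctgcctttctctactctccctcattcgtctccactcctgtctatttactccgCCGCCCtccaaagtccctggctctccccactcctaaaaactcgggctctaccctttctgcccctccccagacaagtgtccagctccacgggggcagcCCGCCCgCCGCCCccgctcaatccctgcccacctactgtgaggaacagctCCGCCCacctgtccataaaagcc
Pdgfra: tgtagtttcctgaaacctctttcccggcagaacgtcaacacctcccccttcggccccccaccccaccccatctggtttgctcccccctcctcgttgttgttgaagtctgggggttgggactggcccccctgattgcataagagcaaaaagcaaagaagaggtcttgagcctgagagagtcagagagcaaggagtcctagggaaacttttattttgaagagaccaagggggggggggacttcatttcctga

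The Postn window held a TATA box close to the start and the Col8a1 window held 4 GC boxes, while the Col6a3 and Pdgfra windows held no match to these letters. Over the 24 windows of the set, 14 (58.3%) held a GC box against 32.7% of all 32851 windows of the same length. The windows of the set were also richer in G and C, with a median of 58.8% against 52.4%. The NF-Y box was in 4 (16.7%) against 33.8% and the TATA box in 3 (12.5%) against 12.4%. The TEAD motif was in 2 (8.3%) against 12.6% and the AP-1 motif in 2 (8.3%) against 6.7%. None of these 5 motifs was in every window of the set. For the set a single window per gene was kept, the one nearest an annotated start. All windows were counted without such a choice, so the shares are of unlike units. A match is a description of the letters and was not tested for binding.

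**Figure D1:**
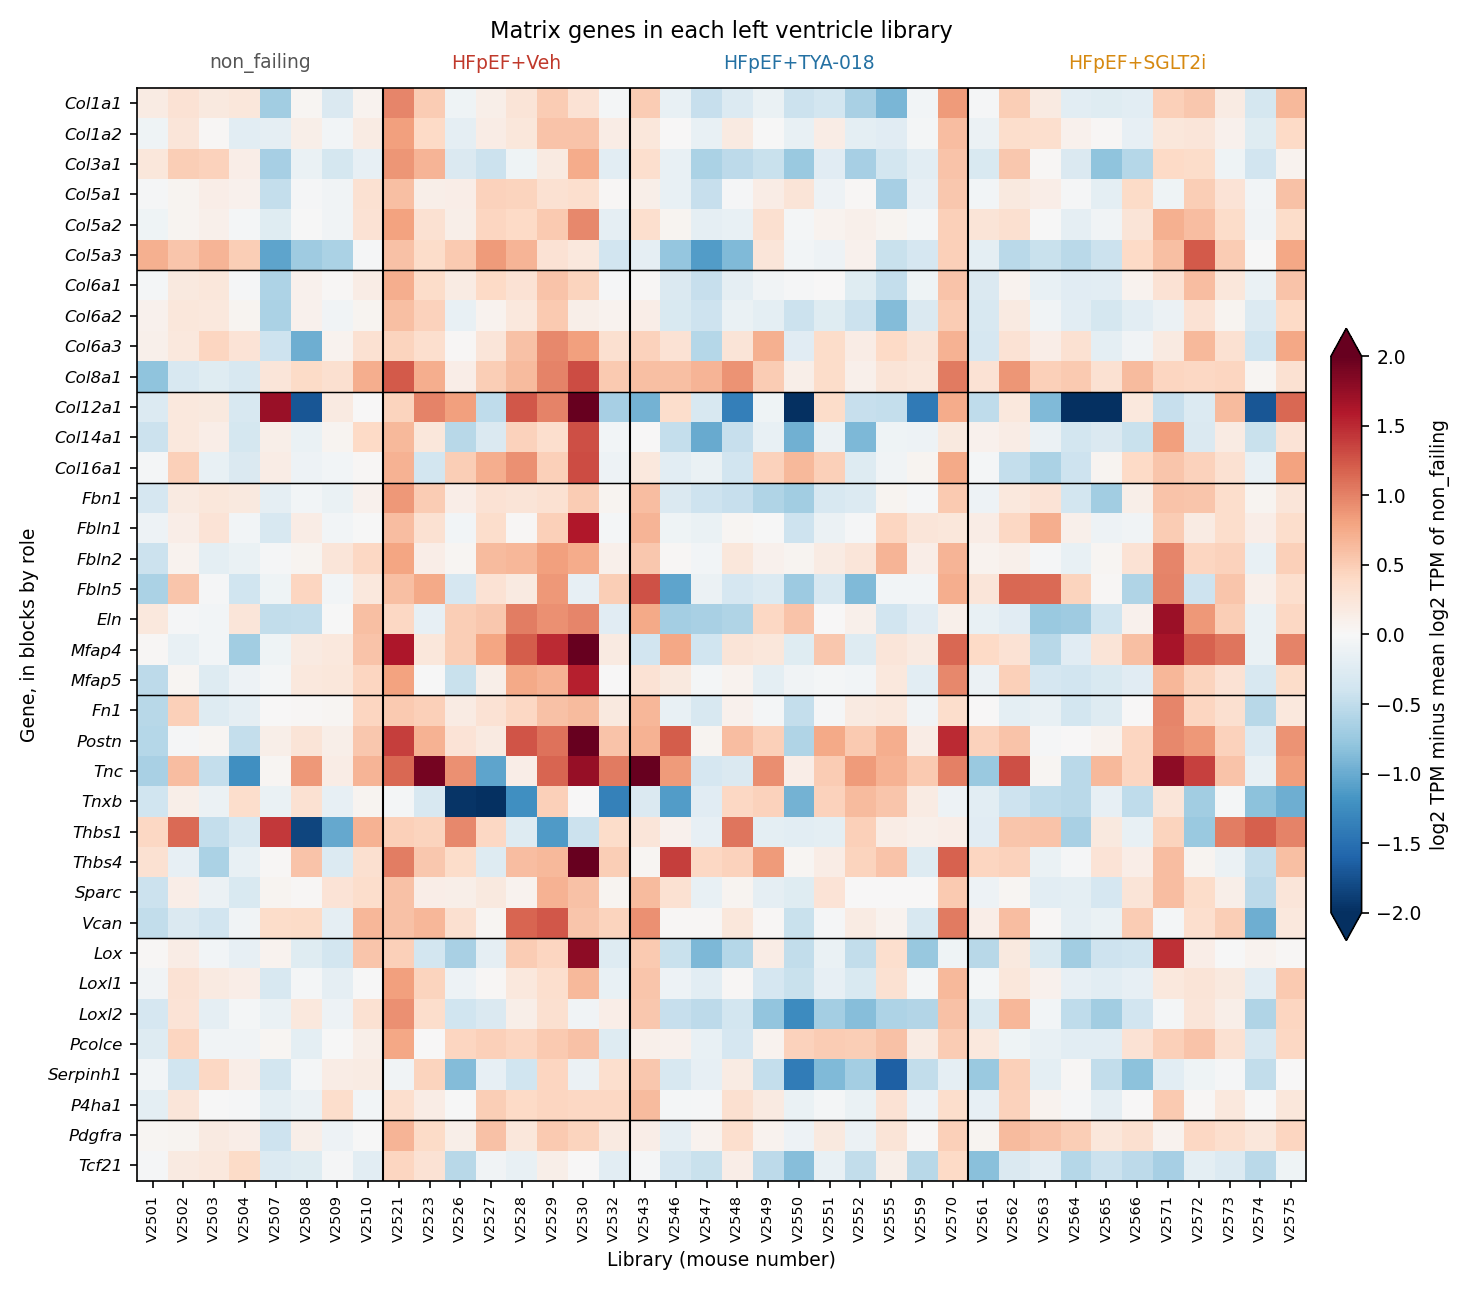
Heat map of the 36 genes (rows, in blocks by role) in the 38 libraries (columns, by group). Colour gives log2 TPM minus the mean log2 TPM of the 8 non_failing libraries, from -2 to 2. Vehicle libraries V2521, V2529 and V2530 are red in most rows, V2526 and V2532 are pale, and single treated mice such as V2570 and V2571 are also red.

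The first comparison asked how the matrix genes of HFpEF hearts differed from those of healthy hearts. Summed over the set, TPM was 330.5 at the lowest, 377.3 at the median and 453.7 at the highest in non_failing and 388.8, 457.9 and 652.9 in HFpEF+Veh. The vehicle group lay above the controls at each of these points, but the groups overlapped. By gene, 6 of 36 rose in HFpEF+Veh and 0 fell (adjusted p under 0.05), against 3.15% of all genes tested that passed in either direction and 1.77% that rose. Fold changes, which are log2 values of the first group over the second throughout, were positive in 32 of 36 members, with a median log2 fold change of 0.29 against 0.01 over all genes, of which 52.3% were positive. An unadjusted p under 0.05 was reached by 18 members, 17 of them higher, against a background of 15.9%. The genes that rose were Col6a3, Col8a1, Col16a1, Mfap4, Postn and Pdgfra, so that each role but the fibrillar collagens and the enzymes had at least 1. With V2530 alone left out, Col8a1, Col16a1, Mfap4 and Postn no longer passed.

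The next comparisons asked how each drug group differed from vehicle-treated HFpEF mice. Both used the same 8 vehicle libraries, so their values are not independent of each other or of the first comparison. With TYA-018 no member passed the test, against a background of 1.93%. The fold changes were negative in 34 of 36 members with a median of -0.29 against -0.01 over all genes, and 19 members, 18 of them lower, had an unadjusted p under 0.05 against a background of 17.5%. DESeq2 called 2 members, Mfap4 and Col6a1, both lower, against a background of 2.92%, and limma on log2(TPM + 1) called 0 against 0.302%. With library sizes scaled by their totals alone 9 members were called lower against 7.78% of all genes, and in that scaling the median of all genes was itself -0.14. With the SGLT2 inhibitor no member passed either, against a background of 0.850%, and 32 of 36 fold changes were negative with a median of -0.17 against 0.01. Here 7 members, all lower, had an unadjusted p under 0.05 against a background of 10.0%. DESeq2 called 0 against 0.835% of all genes, and limma called 0 where it called 0% of all genes. Summed TPM had a median of 390.3 in HFpEF+TYA-018, between 323.5 and 548, and of 389.7 in HFpEF+SGLT2i, between 318.6 and 560.7. Both drug groups overlapped the vehicle group and the controls in this sum.

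**Figure D2:**
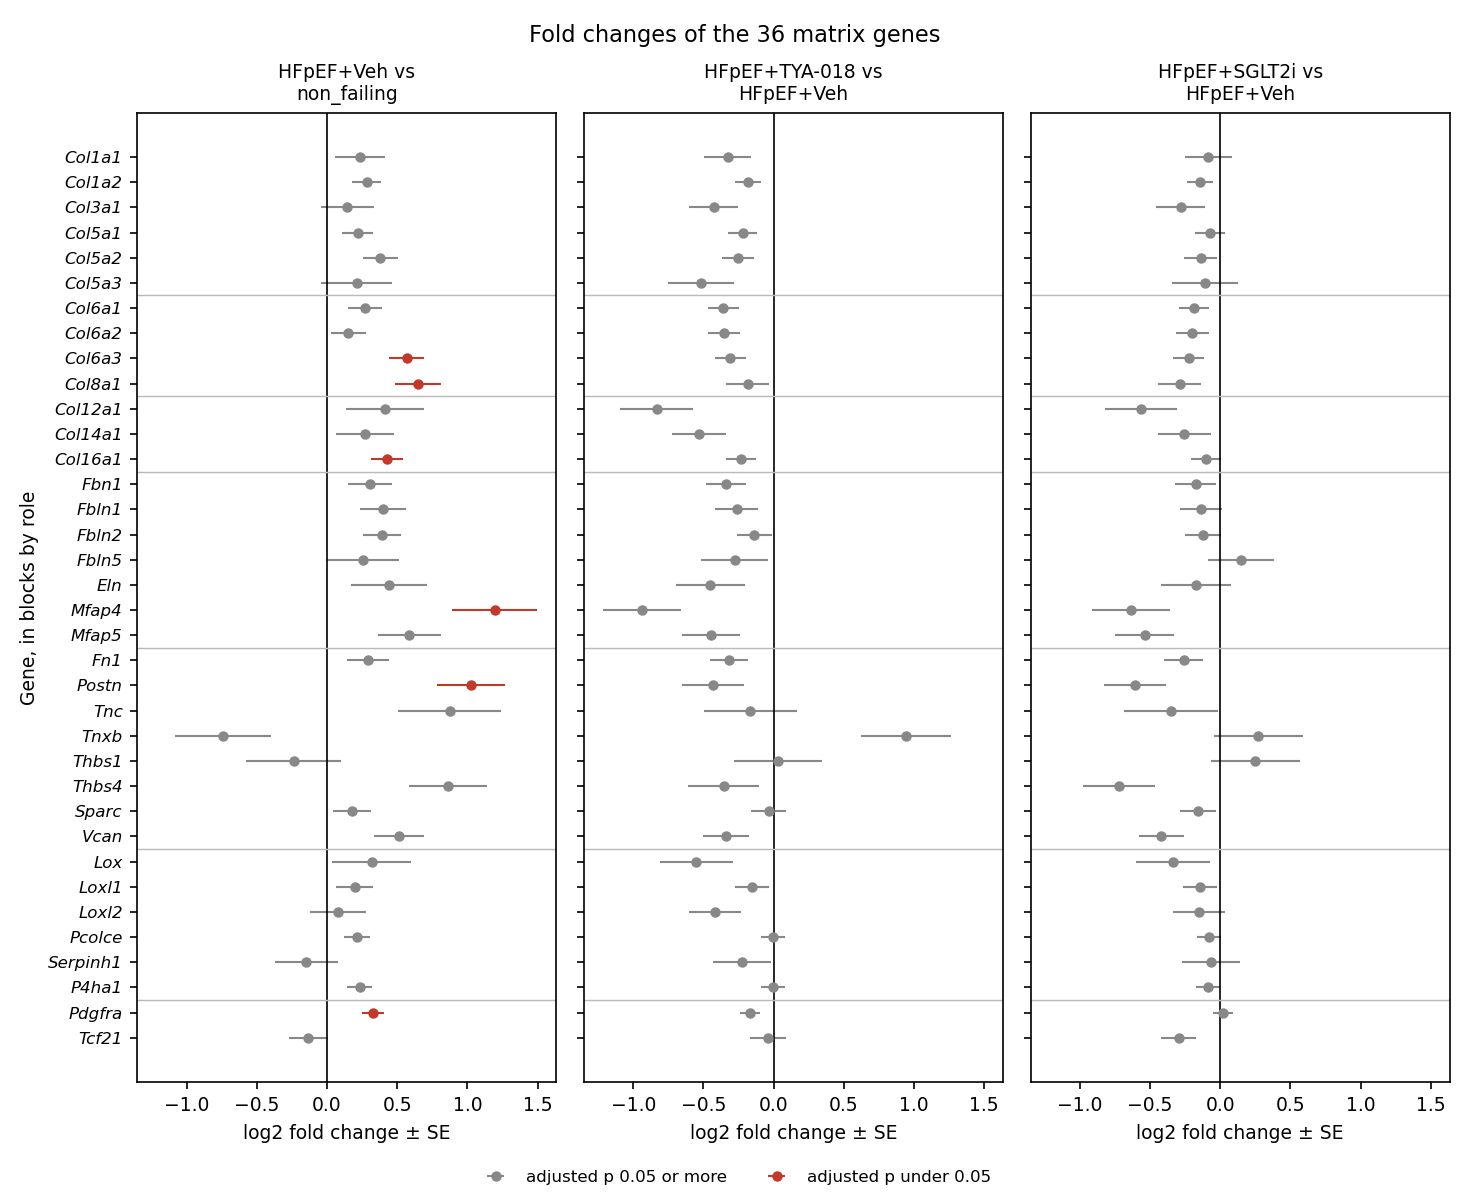
Log2 fold change with its standard error (SE) for the 36 genes in 3 comparisons. Red points mark an adjusted p under 0.05. The 6 red points are all to the right of 0 in HFpEF+Veh vs non_failing and no point is red in either drug comparison. Tnxb lies on the other side of 0 from most genes in each panel.

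The fibrillar collagens, which bear most of the tensile load, gave 6 positive fold changes of 6 in HFpEF+Veh against non_failing, from 0.14 to 0.38, and none passed the test. Col1a1, the main chain of type I collagen, had 4.67 TPM at the lowest, 8.17 at the median and 9.23 at the highest in non_failing and 7.09, 9.11 and 14.8 in HFpEF+Veh. In HFpEF+TYA-018 it had 4.02, 6.27 and 13.6 TPM and in HFpEF+SGLT2i 5.90, 8.49 and 11.8. Vehicle library V2521 alone was above all controls by a wide margin, and all 4 groups overlapped. The log2 fold change of Col1a1 was 0.23 (SE 0.18, adjusted p 0.560) in HFpEF+Veh against non_failing, -0.33 (SE 0.17, adjusted p 0.302) with TYA-018 against vehicle and -0.08 (SE 0.17, adjusted p 0.903) with the SGLT2 inhibitor. Col3a1, the type III collagen chain that is often read as a fibrosis marker, had 9.96, 15.9 and 22.2 TPM in non_failing and 11.8, 16.4 and 29.1 in HFpEF+Veh. It had 9.42, 12.2 and 23.5 TPM with TYA-018 and 9.06, 14.9 and 22.9 with the SGLT2 inhibitor. Of 8 vehicle libraries 4 were above the control mean and 4 below it, so Col3a1 did not separate these groups. Its log2 fold changes were 0.14 (SE 0.19, adjusted p 0.756), -0.43 (SE 0.17, adjusted p 0.180) and -0.28 (SE 0.17, adjusted p 0.612) in the same order, and the first became -0.02 without V2523 and V2530. In HFpEF+Veh against non_failing the smallest p-value of the role belonged to the type V chain Col5a2, which controls fibril diameter, at 0.38 (SE 0.12, adjusted p 0.0892). Col5a2 was called there in 2 of 38 leave-one-library-out fits, with an adjusted p of 0.0245 without V2532.

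Type VI and type VIII collagens, which form networks around the cells rather than thick fibrils, held 2 of the 6 genes that rose. Col6a3, a large type VI chain (chr1:90765923-90843971 on GRCm38, minus strand), had 1.38 TPM at the lowest, 3.02 at the median and 3.64 at the highest in non_failing and 2.75, 3.56 and 5.25 in HFpEF+Veh. With TYA-018 it had 1.83, 3.31 and 4.43 TPM and with the SGLT2 inhibitor 2.05, 3.08 and 4.63. Of 8 vehicle libraries 7 were above the control mean, and the groups overlapped. Col6a3 rose by 0.57 log2 units (SE 0.12, adjusted p 0.00502) in HFpEF+Veh and was called in all 38 leave-one-library-out fits. Its count-based call depended on transcript length. The median effective length assigned to Col6a3 was 5669 bases in HFpEF+Veh and 4723 in non_failing, and with these lengths as an offset its log2 fold change was 0.38 (adjusted p 0.256). Limma on log2(TPM + 1) gave 0.38 (adjusted p 0.213). Col8a1, a short-chain network collagen of vessels and injured heart (chr16:57624258-57754737, minus strand), had 1.34, 2.37 and 3.87 TPM in non_failing and 2.57, 3.75 and 5.78 in HFpEF+Veh. It had 2.50, 3.30 and 4.80 TPM with TYA-018 and 2.40, 3.14 and 4.30 with the SGLT2 inhibitor. All 8 vehicle libraries lay above the control mean, although the lowest of them was below the highest control. Col8a1 rose by 0.65 log2 units (SE 0.17, adjusted p 0.0223), a call made in 33 of 38 leave-one-library-out fits and lost without V2501, V2502, V2503, V2504 or V2530. The adjusted p was 0.0740 without V2530, 0.0726 without both V2523 and V2530 and 0.109 in a fit of the 2 groups alone.

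The other type VI chains, which assemble with Col6a3, stood nearer to the threshold in the TYA-018 comparison than in the disease comparison. Col6a1 had 6.94 TPM at the lowest, 11.1 at the median and 12.5 at the highest in non_failing, 10.5, 13.9 and 17.7 in HFpEF+Veh and 7.72, 10.0 and 16.0 in HFpEF+TYA-018. In HFpEF+TYA-018 10 of 11 libraries were below the vehicle mean, and Col6a1 gave -0.36 (SE 0.11, adjusted p 0.0745). Col6a2 gave -0.35 (SE 0.11, adjusted p 0.0919) with the same number of libraries below. Both were called without V2570, the TYA-018 library that was the highest of its group in 21 of the 36 genes, at adjusted p 0.0102 for Col6a1 and 0.0119 for Col6a2. Without V2523 and V2530 the fold changes were -0.36 (adjusted p 0.152) and -0.35 (adjusted p 0.175).

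Fibril-associated collagens, which sit on fibril surfaces, held Col12a1, Col14a1 and Col16a1. Col16a1 (chr4:130047840-130099283, plus strand) had 2.33 TPM at the lowest, 2.75 at the median and 3.93 at the highest in non_failing and 2.20, 4.29 and 6.99 in HFpEF+Veh. It had 2.17, 2.94 and 4.80 TPM with TYA-018 and 1.82, 2.93 and 4.97 with the SGLT2 inhibitor. The vehicle group held both the highest library, V2530, and one below every control, V2523. Col16a1 rose by 0.43 log2 units (SE 0.12, adjusted p 0.0310) and was called in 30 of 38 leave-one-library-out fits. The call was lost without V2501, V2503, V2504, V2508, V2521, V2528, V2529 or V2530, with the highest adjusted p, 0.0792, without V2528. The length offset gave 0.52 (adjusted p 0.236) and limma 0.44 (adjusted p 0.216). Its effective length varied from 1259 to 2983 bases within the vehicle group. Col12a1, a low-level collagen tied to mechanical load, had a median of 0.193 TPM in non_failing, 0.339 in HFpEF+Veh, 0.131 with TYA-018 and 0.131 with the SGLT2 inhibitor. All 11 TYA-018 libraries were below the vehicle mean, 10 when V2523 and V2530 were left out of it, and its log2 fold change against vehicle was -0.83 (SE 0.26, adjusted p 0.0815). That value was -0.52 (adjusted p 0.342) without V2523 and V2530, and V2530 held 0.962 TPM, the most of any library. The effective length assigned to Col12a1 ran from 1582 to 10055 bases in non_failing and from 1305 to 4946 in HFpEF+Veh. It ran from 944 to 9541 with TYA-018 and from 1321 to 9735 with the SGLT2 inhibitor. TPM is scaled to this length, and its part in the Col12a1 levels was not tested.

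Elastic fibre and microfibril genes gave 7 positive fold changes of 7 in HFpEF+Veh, with a median of 0.40, and 1 rose. Mfap4, a microfibril-associated glycoprotein that binds elastin and collagen (chr11:61485431-61488900, plus strand), had 2.49 TPM at the lowest, 4.00 at the median and 6.01 at the highest in non_failing and 4.59, 8.16 and 28.6 in HFpEF+Veh. With TYA-018 it had 3.06, 4.71 and 8.99 TPM and with the SGLT2 inhibitor 2.75, 5.29 and 12.7. All 8 vehicle libraries were above the control mean, and library V2530 had more than any other. Mfap4 rose by 1.19 log2 units (SE 0.31, adjusted p 0.0214), the largest fold change of the set in this comparison. Without V2504 it was 1.11 (adjusted p 0.0527), without V2530 0.79 (adjusted p 0.119), without V2530 and V2523 together 0.88 (adjusted p 0.0687), and in a fit of the 2 groups alone the adjusted p was 0.0620. With TYA-018 all 11 libraries lay below the vehicle mean, 10 when V2523 and V2530 were left out of it, and the log2 fold change was -0.94 (SE 0.28, adjusted p 0.0643). Mfap4 passed there under 3 of 7 other settings, at adjusted p 0.0312 with DESeq2, 0.0182 with library size alone and 0.0492 with no filter. Without V2523 and V2530 the fold change was -0.62 (adjusted p 0.218).

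Fbn1, the fibrillin that forms the microfibril core, had 2.04 TPM at the lowest, 2.59 at the median and 3.01 at the highest in non_failing and 2.66, 3.15 and 4.65 in HFpEF+Veh. It had 1.58, 2.09 and 3.95 TPM with TYA-018 and 1.58, 2.97 and 3.80 with the SGLT2 inhibitor. All 8 vehicle libraries were above the control mean, but the change of 0.31 (SE 0.16, adjusted p 0.339) did not pass. Against vehicle Fbn1 gave -0.34 (SE 0.15, adjusted p 0.211) with TYA-018 and -0.17 (SE 0.15, adjusted p 0.730) with the SGLT2 inhibitor. Eln, which encodes the elastin core of the fibre, had 6.88, 9.59 and 14.7 TPM in non_failing, 8.31, 13.9 and 19.7 in HFpEF+Veh, 6.03, 9.68 and 16.4 with TYA-018 and 5.77, 8.80 and 31.8 with the SGLT2 inhibitor. The highest library of all for Eln, V2571, was a mouse given the SGLT2 inhibitor. Its log2 fold changes were 0.44 (SE 0.27, adjusted p 0.436), -0.45 (SE 0.25, adjusted p 0.346) and -0.17 (SE 0.25, adjusted p 0.854). The other members of the role, Fbln1, Fbln2, Fbln5 and Mfap5, did not pass in any of the 6 comparisons.

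Adhesive and matricellular glycoproteins, which link cells to the matrix and are switched on in injury, held the widest range of responses. Postn encodes periostin, a matricellular protein of activated fibroblasts that promotes collagen assembly (chr3:54361109-54391037, plus strand). It had 6.76 TPM at the lowest, 10.5 at the median and 14.5 at the highest in non_failing and 11.3, 18.8 and 44.1 in HFpEF+Veh. With TYA-018 it had 6.60, 15.3 and 28.3 TPM and with the SGLT2 inhibitor 8.25, 13.7 and 19.6. Every vehicle library was above the control mean, and the lowest of them overlapped the upper controls. Postn rose by 1.03 log2 units (SE 0.24, adjusted p 0.0112), was called in 37 of 38 leave-one-library-out fits and had an adjusted p of 0.0531 without V2530. Without V2523 and V2530 together the change was 0.81 (adjusted p 0.0457). Against vehicle Postn gave -0.43 (SE 0.22, adjusted p 0.305) with TYA-018 and -0.61 (SE 0.22, adjusted p 0.252) with the SGLT2 inhibitor. These were -0.22 (adjusted p 0.670) and -0.39 (adjusted p 0.765) without V2523 and V2530, and without V2530 alone -0.18 and -0.35. All 11 SGLT2 inhibitor libraries lay below the mean of the 8 vehicle libraries and 9 below the mean of 18.2 TPM without V2523 and V2530.

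Fn1, the fibronectin that seeds fibril assembly, had 4.65 TPM at the lowest, 6.91 at the median and 9.54 at the highest in non_failing, 7.65, 9.33 and 10.6 in HFpEF+Veh, 4.89, 6.76 and 10.8 with TYA-018 and 4.64, 6.89 and 13.4 with the SGLT2 inhibitor. The vehicle group was the narrowest of the 4, and its lowest library lay above the medians of the other groups. Its log2 fold changes were 0.29 (SE 0.15, adjusted p 0.333), -0.32 (SE 0.14, adjusted p 0.215) and -0.26 (SE 0.14, adjusted p 0.531). Sparc, the most abundant member, had 76.9, 106.2 and 132 TPM in non_failing, 107.1, 115.8 and 167.6 in HFpEF+Veh, 87.8, 104.1 and 160.4 with TYA-018 and 72.1, 106 and 159.1 with the SGLT2 inhibitor. The lowest vehicle library was close to the median of the other groups, whose upper libraries reached into the vehicle range. Sparc gave 0.18 (SE 0.13, adjusted p 0.556), -0.03 (SE 0.13, adjusted p 0.915) and -0.16 (SE 0.12, adjusted p 0.714). The thrombospondin Thbs4, a matricellular protein of stressed heart and tendon, gave 0.86 (SE 0.28, adjusted p 0.0813) in HFpEF+Veh and -0.72 (SE 0.25, adjusted p 0.227) with the SGLT2 inhibitor. Its value in V2530 was 5.68 TPM against a group median of 1.40, and without V2523 and V2530 the disease fold change was 0.39 (adjusted p 0.414) and that with the SGLT2 inhibitor -0.25 (adjusted p 0.854).

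Tnxb, the tenascin that spaces collagen fibrils in soft connective tissue, lay on the opposite side of 0 from most of the set. It had 1.601 TPM at the lowest, 2.08 at the median and 2.70 at the highest in non_failing, 0.179, 1.30 and 2.96 in HFpEF+Veh, 0.981, 2.38 and 3.28 with TYA-018 and 1.07, 1.49 and 2.51 with the SGLT2 inhibitor. The vehicle group spread more widely than the others, with V2527 lowest and V2529 highest. Its log2 fold change was -0.74 (SE 0.34, adjusted p 0.271) in HFpEF+Veh, 0.94 (SE 0.32, adjusted p 0.110) with TYA-018 and 0.27 (SE 0.32, adjusted p 0.821) with the SGLT2 inhibitor, so none passed. Leaving out V2523 and V2530 moved these to -0.96 (adjusted p 0.186), 1.16 (adjusted p 0.126) and 0.49 (adjusted p 0.822). Thbs1, an activator of latent TGF-beta, was the only other member of the role with a negative fold change in HFpEF+Veh, at -0.24 (SE 0.34, adjusted p 0.783), and it ranged from 3.05 to 29.1 TPM within non_failing alone.

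The genes for cross-linking, processing and folding gave 5 positive fold changes of 6 in HFpEF+Veh with a median of 0.21, and none passed. Lox, the lysyl oxidase that joins collagen and elastin chains, had 0.897 TPM at the lowest, 1.15 at the median and 1.70 at the highest in non_failing, 0.734, 1.29 and 3.99 in HFpEF+Veh, 0.622, 0.845 and 1.65 with TYA-018 and 0.715, 1.15 and 3.17 with the SGLT2 inhibitor. Of 8 vehicle libraries 4 were above the control mean and 4 below. Lox gave 0.32 (SE 0.28, adjusted p 0.627), -0.55 (SE 0.26, adjusted p 0.264) and -0.34 (SE 0.26, adjusted p 0.709), and the first of these was -0.08 without V2530. Serpinh1, the collagen chaperone HSP47, had 23.4, 31.7 and 41.0 TPM in non_failing, 16.9, 28.8 and 41.7 in HFpEF+Veh, 9.94, 22.1 and 44.8 with TYA-018 and 17.4, 26.9 and 42.8 with the SGLT2 inhibitor. Its highest value in the vehicle group came from V2523. Serpinh1 gave -0.15 (SE 0.23, adjusted p 0.802), -0.23 (SE 0.21, adjusted p 0.603) and -0.07 (SE 0.21, adjusted p 0.944), and it was the only member of its role below 0 in HFpEF+Veh.

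The fibroblast identity genes parted from each other. Pdgfra, the growth factor receptor carried by cardiac fibroblasts (chr5:75152292-75198215, plus strand), had 2.54 TPM at the lowest, 3.50 at the median and 3.82 at the highest in non_failing and 3.66, 4.50 and 5.44 in HFpEF+Veh. With TYA-018 it had 3.00, 3.57 and 4.72 TPM and with the SGLT2 inhibitor 3.51, 4.26 and 5.27. All 8 vehicle libraries were above the control mean and only the lowest of them reached into the control range. Pdgfra rose by 0.33 log2 units (SE 0.08, adjusted p 0.0123) in HFpEF+Veh and was called in all 38 leave-one-library-out fits and under all 7 other settings, with 0.34 (adjusted p 0.0245) without V2523 and V2530. Against vehicle it gave -0.17 (SE 0.07, adjusted p 0.215) with TYA-018 and 0.02 (SE 0.07, adjusted p 0.954) with the SGLT2 inhibitor. Tcf21, a transcription factor of resident fibroblasts (chr10:22817281-22820174, minus strand), had 4.35, 5.14 and 6.79 TPM in non_failing, 3.56, 5.11 and 7.08 in HFpEF+Veh, 2.89, 4.14 and 6.86 with TYA-018 and 2.92, 3.90 and 4.95 with the SGLT2 inhibitor. The vehicle range of Tcf21 took in the whole control range, while every SGLT2 inhibitor library was below the vehicle mean. Its log2 fold changes were -0.13 (SE 0.14, adjusted p 0.685), -0.04 (SE 0.13, adjusted p 0.900) and -0.30 (SE 0.13, adjusted p 0.383).

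**Figure D3:**
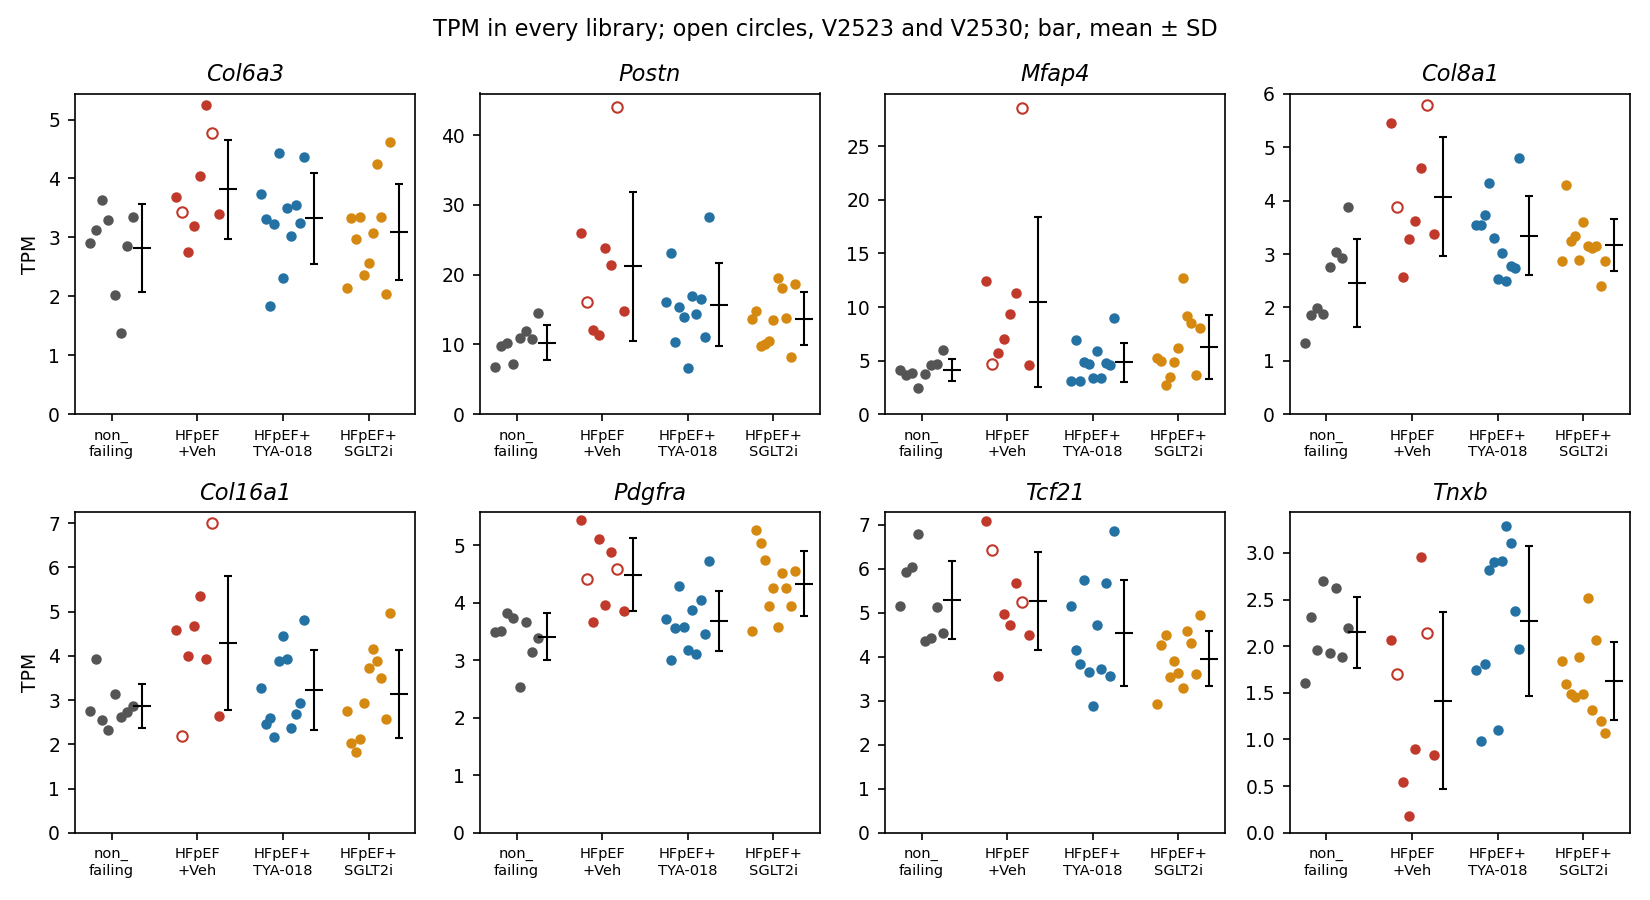
TPM of 8 genes in every library by group, with the group mean and SD as a bar; open circles are V2523 and V2530. The 6 genes that rose in HFpEF+Veh, then Tcf21 and Tnxb, are shown. V2530 is the highest point for Postn, Mfap4, Col8a1 and Col16a1, and no gene separates the groups fully.

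The remaining comparisons placed each drug group beside the healthy hearts and beside the other drug. Both comparisons with non_failing share those 8 control libraries with each other and with the first comparison. In HFpEF+TYA-018 against non_failing no member passed, against a background of 7.39%, and 8 members, all higher, had an unadjusted p under 0.05 against 22.0%. The median log2 fold change of the set was 0.07, and DESeq2 called 1 member against a background of 9.24%. In HFpEF+SGLT2i against non_failing 2 of 36 passed, against a background of 6.45%, and 7 had an unadjusted p under 0.05 against 19.6%. Pdgfra rose by 0.35 log2 units (SE 0.07, adjusted p 0.00211), in all 38 leave-one-library-out fits. Tcf21 fell by 0.43 log2 units (SE 0.13, adjusted p 0.0324), in 33 of those fits, with an adjusted p of 0.0925 without V2504 and calls also lost without V2502, V2503, V2566 or V2571. The other settings that lost Tcf21 were library size alone (adjusted p 0.0668) and limma (adjusted p 0.0754). The median of the set was 0.13 with 28 of 36 positive. Pdgfra was thus above the controls and Tcf21 below them, in a comparison where 6.45% of all genes passed. Of 11 resident fibroblast genes there, 9 fold changes were positive, with a median of 0.05, and 1 gene, Thy1, was called lower. A difference in fibroblast content was not tested.

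Between the drug groups no member passed, as did no gene at all, the background being 0%. DESeq2 called 0 members against 1.34% of all genes, and by edgeR 3 members had an unadjusted p under 0.05 against 13.2%. These were Pdgfra at -0.19 for TYA-018 against the SGLT2 inhibitor (95% interval -0.32 to -0.06), Tcf21 at 0.26 (0.03 to 0.49) and Tnxb at 0.67 (0.10 to 1.24). For Col1a1 the difference was -0.24 (-0.54 to 0.06), for Col3a1 -0.15 (-0.46 to 0.17) and for Postn 0.17 (-0.23 to 0.57). A p above the threshold does not show that the drugs act alike on a gene. The labels give no doses by which the drugs could be matched, although the study's methods state a daily dose of each.

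The vehicle group was uneven. Of the 36 genes 12 were highest in V2521, 12 in V2530 and 6 in V2529, whereas 17 were lowest in V2526 and 11 in V2532. V2521 was above the group median in 33 genes and V2529 in 32, but V2526 in only 2 and V2532 in 4. Some marker sums followed this order and others did so in part. The 11 resident fibroblast genes, which include Dcn, Mgp and Thy1, summed to 1860 TPM in V2530, 1360 in V2529 and 1290 in V2521 but 750 in V2526 and 828 in V2532. The 13 activated fibroblast genes summed to 252 TPM in V2530, 243 in V2521 and 237 in V2527 but only 150 in V2529, against 156 in V2526 and 124 in V2532, and 7 valve and tendon genes to 47.9 in V2530 against 19.4 in V2532. The 8 macrophage genes summed to 154 TPM in V2530 and 149 in V2529 against 90.1 in V2532. Cardiomyocyte sums were 27000 TPM in V2530 and 27600 in V2532. The part of fibroblast, valve or macrophage content in the matrix values was not tested.

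Without V2523 and V2530, 4 of 36 members rose in HFpEF+Veh against 1.24% of all genes in that fit, namely Col6a3 by 0.58 (adjusted p 0.00835), Postn by 0.81 (adjusted p 0.0457), Col16a1 by 0.45 (adjusted p 0.0300) and Pdgfra by 0.34 (adjusted p 0.0245). The median of the set was 0.26. In TYA-018 against vehicle 0 were called, the median was -0.23 and 11 members had an unadjusted p under 0.05 against 15.3% of all genes, while the number of genes called over the whole table dropped from 266 to 1. In SGLT2 inhibitor against vehicle 0 were called, the median was -0.14 and 1 member had an unadjusted p under 0.05 against 6.99% of all genes. There the number of genes called over the whole table dropped from 117 to 0. Summed TPM of the vehicle group was 495 ± 98.0 (SD, n = 8) with all libraries and 476 ± 87.6 (SD, n = 6) without these, against 385 ± 40.6 (SD, n = 8) in non_failing, 400 ± 71.8 (SD, n = 11) with TYA-018 and 409 ± 80.4 (SD, n = 11) with the SGLT2 inhibitor. The gap between the fits was widest for Thbs4, Tnc, Lox, Mfap4 and Col12a1 in HFpEF+Veh against non_failing and narrow there for the type I and type VI collagens. Tnc went from 0.87 to 0.52. Fbln1 went from 0.40 to 0.13 and Col14a1 from 0.27 to 0.03 in HFpEF+Veh against non_failing, neither of which passed in either fit.

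**Figure D4:**
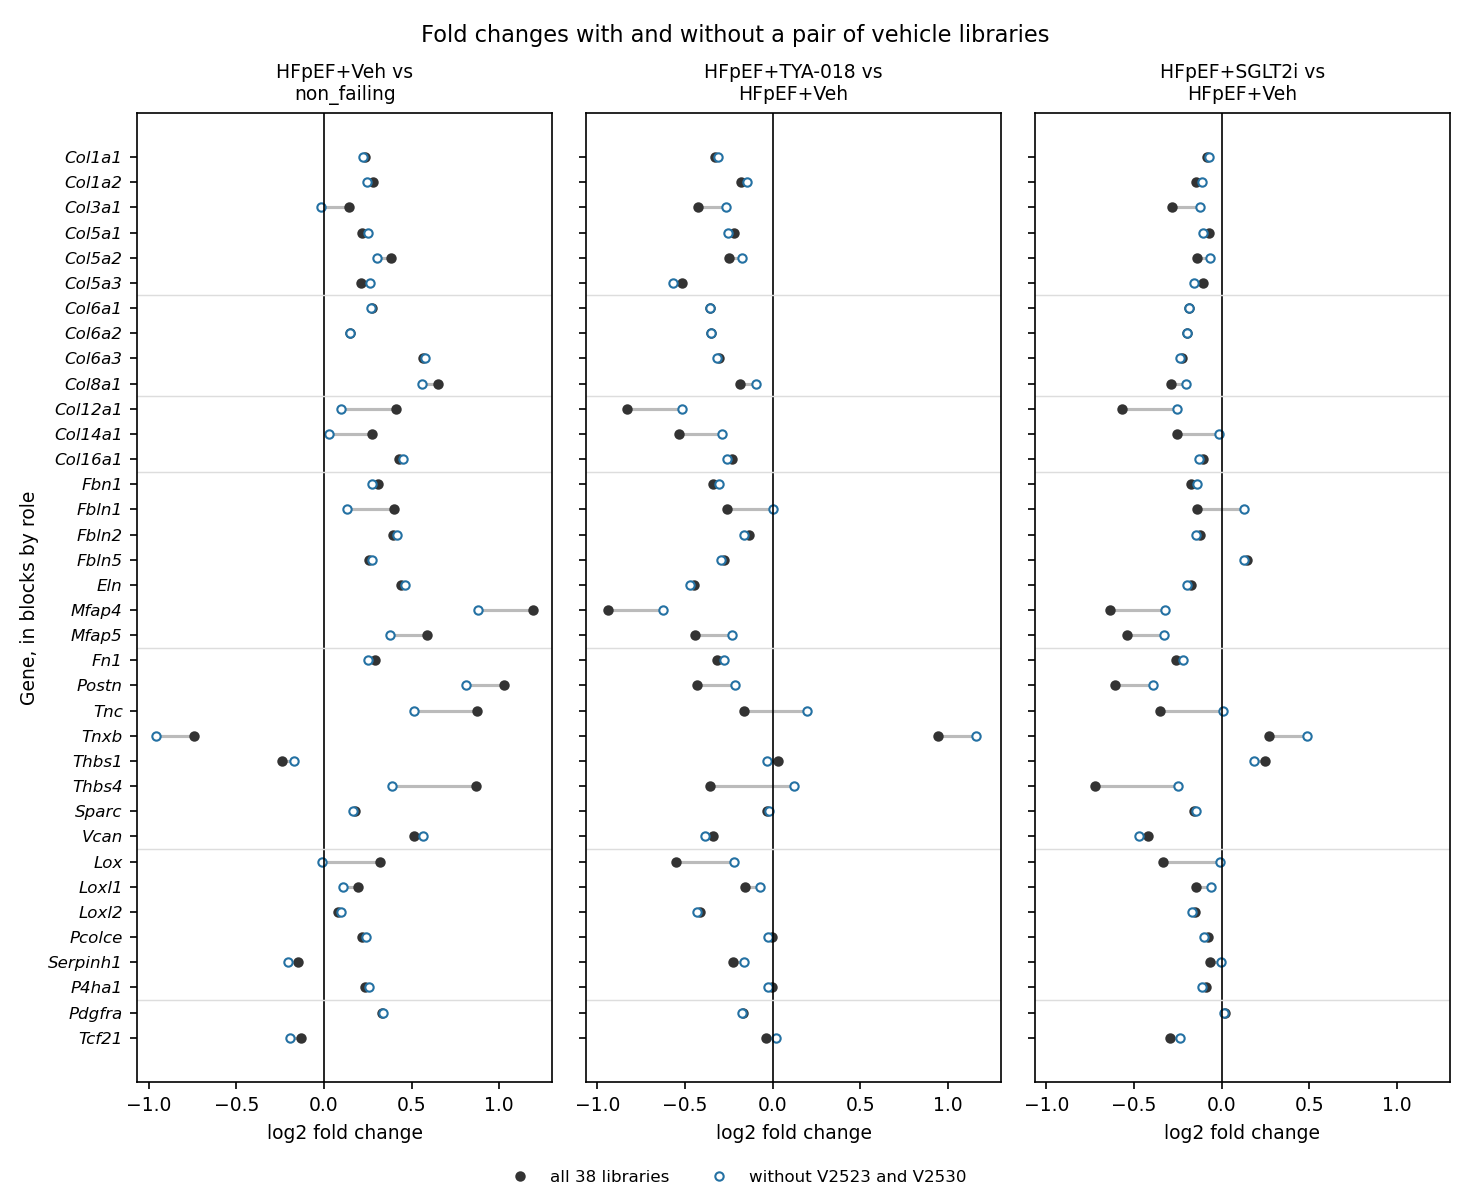
Log2 fold change of each gene with all 38 libraries (filled) and without vehicle libraries V2523 and V2530 (open) in 3 comparisons. Thbs4, Tnc, Lox, Mfap4 and Col12a1 have the longest grey lines in each panel. Col6a1, Col6a2, Col6a3 and Pdgfra stay in place.

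The same genes also varied between mice of a group. After each group's mean was taken out, the 630 pairs of members had a median correlation of 0.42 over the 38 libraries and 583 were above 0. The closest pair was Col1a1 with Col6a2 at 0.92. These values describe libraries that share tissue sampling and depth, and no test was made of them.

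Genes that act on collagen beside the set were read from fixed lists. Of 25 collagen processing genes 23 were tested, and 3 rose in HFpEF+Veh, against the 1.77% of all genes that rose there. These were Fkbp10, a chaperone and isomerase of procollagen, by 0.56 (SE 0.09, adjusted p 0.000228), and P3h4 by 0.47 (SE 0.12, adjusted p 0.0211) and P3h3 by 0.38 (SE 0.11, adjusted p 0.0370), both related to the enzymes that modify collagen prolines and lysines in the endoplasmic reticulum. None of the 23 fell there. When V2523 and V2530 were left out, the adjusted p was 0.00220 for Fkbp10, 0.0619 for P3h4 and 0.0457 for P3h3. In HFpEF+TYA-018 against non_failing 3 of the 23 rose (P3h4, Fkbp10 and Pcolce2), against 7.39% of all genes called in either direction. In HFpEF+SGLT2i against non_failing 4 rose (P4ha2, Plod3, P3h4 and Fkbp10), against 6.45%. With TYA-018 1 of the 23 fell against vehicle, where 1.93% of all genes passed in either direction. This was P3h2, by 0.42 (SE 0.11, adjusted p 0.0281), which gave -0.41 (adjusted p 0.0908) without V2523 and V2530. With the SGLT2 inhibitor edgeR called 0 against 0.850% of all genes, with 1 at an unadjusted p under 0.05 against 10.0%. Of 10 other collagens tested 1 rose in HFpEF+Veh, against 1.77% of all genes. With TYA-018 against vehicle 1 fell, against 1.93% called in either direction. Col27a1, a fibrillar collagen best known from cartilage, rose by 0.90 log2 units (SE 0.21, adjusted p 0.00918) in HFpEF+Veh. Col15a1, a basement membrane collagen of the microvessel and muscle surface, fell by 0.53 log2 units (SE 0.14, adjusted p 0.0315) with TYA-018 against vehicle. With V2523 and V2530 left out, Col27a1 gave 0.95 (adjusted p 0.0104) and Col15a1 -0.53 (adjusted p 0.105). Col27a1 was also called higher in each drug group against non_failing, the only 1 of the 10 called there, against 7.39% and 6.45% of all genes.

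Of 12 activated fibroblast genes tested, 3 rose in HFpEF+Veh against the same 1.77%, namely the cartilage oligomeric matrix protein Comp by 1.86 (SE 0.51, adjusted p 0.0332), the cartilage intermediate layer protein Cilp by 1.81 (SE 0.37, adjusted p 0.00296) and the latent TGF-beta binding protein Ltbp2 by 1.67 (SE 0.35, adjusted p 0.00387). Once V2523 and V2530 were left out, Comp gave 0.58 (adjusted p 0.493), Cilp 1.31 (adjusted p 0.0122) and Ltbp2 1.22 (adjusted p 0.0170). Comp also belongs to the valve and tendon list, in which 2 of 5 tested genes rose, against 1.77% of all genes. Without those libraries 1 rose, against 1.24%. In HFpEF+TYA-018 against non_failing 1 of the 5, Prg4, rose, against 7.39% of all genes called in either direction. In HFpEF+SGLT2i against non_failing Fmod and Prg4 were called, 1 higher and 1 lower, against 6.45%. None of these 5 passed with either drug against vehicle. Their medians were -0.34 with TYA-018 and -0.59 with the SGLT2 inhibitor, or -0.09 and -0.37 without V2523 and V2530. At an unadjusted p under 0.05 were 2 and 3 of them, against 17.5% and 10.0% of all genes, or 0 and 1 without those libraries. Of the 12 activated fibroblast genes none passed against vehicle with either drug. An unadjusted p under 0.05 was reached by 5 with TYA-018 and 8 with the SGLT2 inhibitor, against the same 17.5% and 10.0%. Leaving out V2523 and V2530 reduced these to 1 and 3, against 15.3% and 6.99%, and moved the list's median from -0.32 to -0.13 and from -0.45 to -0.32. Against non_failing 1 of the 12, Acta2, rose with TYA-018, where 7.39% of all genes were called in either direction. With the SGLT2 inhibitor 0 of the 12 were called there, against 6.45%. Of 11 resident fibroblast genes 0 passed in HFpEF+Veh and 4 had an unadjusted p under 0.05, against 15.9% of all genes. Against vehicle 0 passed with either drug. Of the 11 fold changes 1 was positive with TYA-018 and 2 with the SGLT2 inhibitor, with medians of -0.13 and -0.14. At an unadjusted p under 0.05 were 0 and 3, against 17.5% and 10.0%. Without V2523 and V2530, 4 were positive with each drug, with 0 and 2 at such a p, against 15.3% and 6.99%. Of 8 cardiomyocyte genes 3 fell in HFpEF+Veh, against 3.15% of all genes that passed there in either direction. Among them was the troponin gene Tnnt2, by 0.43 (SE 0.09, adjusted p 0.00459). None of 6 endothelial and 8 macrophage genes passed in these 3 comparisons by edgeR. At an unadjusted p under 0.05 were 0 and 2 of them in HFpEF+Veh against non_failing, against 15.9% of all genes. With the SGLT2 inhibitor against vehicle these counts were 0 and 0, against 10.0%. Of 8 smooth muscle and pericyte genes Rgs5 and Abcc9 fell in HFpEF+Veh, against the same 3.15% (adjusted p 0.110 and 0.0822 without V2523 and V2530). All 8 macrophage fold changes were positive there, with a median of 0.29, or 0.19 and 1 gene at an unadjusted p under 0.05 without V2523 and V2530. With TYA-018 against vehicle all 6 endothelial fold changes were negative, with a median of -0.13 and 2 at an unadjusted p under 0.05. So were 7 of 8 macrophage fold changes, with a median of -0.17 and 2 at such a p, against 17.5% of all genes. In that comparison 7 of 8 cardiomyocyte fold changes were positive, with a median of 0.185 and 5 at an unadjusted p under 0.05 against 17.5% of all genes. Of these cardiomyocyte genes 6 were positive and 1 was at such a p without V2523 and V2530. Of 4 epicardial and mesothelial genes tested 0 passed in HFpEF+Veh against non_failing, with 3 at an unadjusted p under 0.05, against 15.9% of all genes. Krt19 of this list was lower with the SGLT2 inhibitor than with vehicle (adjusted p 0.0376), where 0.850% of all genes passed, but not without V2523 and V2530 (adjusted p 0.934). Upk3b and Lrrn4 fell in HFpEF+SGLT2i against non_failing, where 6.45% of all genes passed in either direction. Of 3 atrial genes tested Dkk3 rose in HFpEF+Veh, against 1.77% of all genes. Without V2523 and V2530 none was called there, with 2 at an unadjusted p under 0.05 against 15.4% of all genes. How far these shifts enter the matrix values was not tested.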

How the data were processed

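Left ventricle RNA-seq libraries of 38 mice were analysed. Per the study's methods reads were trimmed with fastp, quantified with Salmon (1.6.0 in the submitters' processing notes) on GENCODE transcripts of GRCm38 and summed to genes with tximport. The labels name hg38 as the build, which is no mouse assembly, give the sex as female where the methods give male, and the series title and methods differ on the length of treatment. None of these entered a test.

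The authors deposited expected counts (estimated reads per gene, fractional where a read fits several genes), TPM values, scaled to 1000000 transcripts per library, and effective gene lengths in bases, another deposited quantity. Reads shared by close paralogs are split by a model. Depth was 21.5 to 59.3 M counts (M, 1000000).

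Expected counts were rounded, filtered with filterByExpr and scaled with TMM. The two-sided quasi-likelihood F test of edgeR 4.0.16 (R 4.3.3) was fitted to all 4 groups in 1 model with no covariates, for 6 comparisons, and p-values were adjusted by Benjamini-Hochberg over 13765 genes, with calls at adjusted p under 0.05. SE is the log2 fold change over the root of F. Fold changes are log2 and TPM give levels. Libraries above or below a mean were counted on TPM. A p-value measures the spread between mice of this study. The pipeline was tested on simulated data. Alternatives were library size alone, DESeq2 1.42.0, no filter, limma 3.58.1 on log2(TPM + 1), a length offset, the 2 groups alone, V2523 and V2530 left out, and each library left out. Coordinates are GENCODE M21 gene spans on GRCm38 and promoters RefSeq windows.

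Named with statistics were members called in a comparison and 11 anchor genes (Col1a1, Col3a1, Fn1, Fbn1, Eln, Postn, Sparc, Lox, Serpinh1, Pdgfra, Tcf21). Col5a2, Col6a1, Col6a2, Col12a1, Thbs4, Tnxb, Thbs1, Tnc, Fbln1 and Col14a1 were named after their values were seen. The members and lists were chosen with earlier results of these data known. P3h2, P3h3 and P3h4 were matched by older symbols.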

Additional observations from a re-analysis of the deposited data

Results flagged for a closer look

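In groups of 8, each gene's highest and lowest library was compared with its nearest neighbour by Dixon's ratio, and 12 of 72 gene and group pairs had a library that stood apart. A rate of about 1 in 20 would hold for independent values with a normal spread. Members varied together, with 583 of 630 pairs correlated above 0, so 12 of 72 cannot be set against that rate. The groups of 11 were not tested in this way. In HFpEF+Veh, V2530 stood above the rest for 7 genes, with 0.962 TPM of Col12a1, 48.9 of Fbln1, 28.6 of Mfap4, 54.9 of Mfap5, 44.1 of Postn, 5.68 of Thbs4 and 3.99 of Lox. V2530 did not stand apart for any fibrillar or type VI collagen. V2521 stood above the other vehicle libraries for Col1a1 with 14.8 TPM and for Loxl2, a lysyl oxidase of the same family as Lox, with 3.26 TPM. In non_failing, V2507 stood below the others for the type VI chains Col6a1 with 6.94 and Col6a2 with 6.60 TPM and above them for Col12a1 with 0.595 TPM.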

How the results depend on the processing

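The count of 6 members that rose in HFpEF+Veh against non_failing was between 4 and 8 over the 7 other settings, which called 1.91% to 4.35% of all genes, and 4 with V2523 and V2530 left out, so no setting turned its direction. Leaving out 1 library gave 2 to 7, with 2 without V2530 and 3 without V2504. Postn and Pdgfra passed under all 7. In TYA-018 against vehicle the count of 0 became 9 with library size alone (7.96% of all genes), 2 with DESeq2 (2.92%) and 1 with no filter (2.83%), and 0 to 3 with 1 library left out, with 3 without V2570 and 1 without V2523, V2526, V2532, V2571 or V2572. It was 0 in every fit for SGLT2 inhibitor against vehicle and for the drugs against each other. In TYA-018 against non_failing 0 became 1 with DESeq2 (9.24%) and 1 with the length offset (7.03%), and 0 to 1 with 1 library left out, with 1 without V2507, V2509, V2510 or V2530. In SGLT2 inhibitor against non_failing 2 became 1 with library size alone (4.77%), 1 with limma (3.79%) and 3 with DESeq2 (8.20%), and 1 to 4 with 1 library left out, with 1 without V2504, V2566 or V2571 and 4 without V2563. For the fits with 1 library left out, the share of all genes called is not given here. Those counts therefore describe the fits and are not a result about the set. No member crossed 0 in a comparison in which it was called. Over all fits 4 of the 36 crossed 0 in HFpEF+Veh against non_failing, 8 in TYA-018 against vehicle, 6 in SGLT2 inhibitor against vehicle, 11 between the drugs, 7 in TYA-018 against non_failing and 8 in SGLT2 inhibitor against non_failing. Tnc, Thbs1, Loxl2, Fbln1, Pcolce and P4ha1 were among them in 1 or more of the first 3 of these. Without V2523 and V2530 the values were Col3a1 at -0.0163 and Lox at -0.0116 in HFpEF+Veh against non_failing and Thbs4 at 0.12, Tcf21 at 0.0203, Tnc at 0.19, Fbln1 at 0.00417 and Thbs1 at -0.0350 in TYA-018 against vehicle, and Fbln1 at 0.13 and Tnc at 0.00630 in SGLT2 inhibitor against vehicle. Pdgfra in SGLT2 inhibitor against vehicle was -0.0604 with library size alone, -0.0251 with limma and -0.0168 with the length offset. With 1 library left out, Lox in HFpEF+Veh ranged from -0.0796 to 0.42, Thbs1 from -0.41 to 0.11 and Loxl2 from -0.0375 to 0.14. In TYA-018 against vehicle Thbs4 ranged from -0.49 to 0.12, Sparc from -0.0863 to 0.0185 and Tcf21 from -0.11 to 0.0220. Thbs1 ranged there from -0.0981 to 0.20, Pcolce from -0.0519 to 0.0444 and P4ha1 from -0.0486 to 0.0175. In SGLT2 inhibitor against vehicle Col1a1 ranged from -0.13 to 0.00957, Lox from -0.57 to 0.0627, Serpinh1 from -0.16 to 0.0107 and Pdgfra from -0.00965 to 0.0433. Fbln1 ranged there from -0.20 to 0.12. The cause of these changes was not tested. No paired analysis was possible because mouse numbers differ between groups. Library size alone moved the median of all genes to -0.14 in TYA-018 against vehicle. Tnc, Col12a1 and Fbln5 lie below 1 TPM in most libraries, where few reads limit precision.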
